A study of Mus musculus with 6 samples.

Results

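Antigen presentation genes of the major histocompatibility complex (MHC) were described in blood stem cells of control and Rbfox2-deleted mice. The members were chosen by function, as 10 named genes of class I presentation (the heavy chain genes H2-K1, H2-D1 and H2-T23, the light chain gene B2m, and the peptide loading genes Tap1 and Tapbp) and class II presentation (H2-Aa, H2-Ab1, H2-Eb1 and the invariant chain gene Cd74). Of these 10, 9 were measured among 22969 gene identifiers, and all 9 passed the filter on low counts. H2-D1 was not analysed here. Of the 9, 7 lie on chromosome 17, where the mouse MHC is, B2m lies on chromosome 2 and Cd74 on chromosome 18.

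RNA came from about 500 bone marrow stem cells per library, sorted from adult C57BL/6 mice as lineage-negative, Sca-1 and c-Kit positive cells with CD150 and without CD48, and were turned into cDNA by Smart-seq2, which copies and PCR-amplifies full-length transcripts. The 3 control mice carried Rbfox2-fl/fl, and the 3 Rbfox2-deleted mice carried Vav1-cre; Rbfox2-fl/fl. The floxed alleles were therefore common to both groups, and the labels list Cre for the Rbfox2-deleted mice only. Vav1-cre acts broadly in blood cells from development on, not in stem cells alone. Rbfox2 encodes an RNA-binding splicing regulator, and the series asks how it acts on stem cell self-renewal and protein homeostasis.

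Controls 1 to 3 held 47895459, 51643037 and 55151484 counts and Rbfox2-deleted libraries 1 to 3 held 23474895, 35650284 and 33345370. Controls 1 and 3 were nearly the same library (chi-square per degree of freedom 3.44, against 156 to 808 for other pairs), so they were pooled and counted as 1 sample, which leaves n = 2 controls and n = 3 Rbfox2-deleted samples. The labels name a mouse for each library but no litter, date or sex, and p-values measure the spread between these 5 samples. Rbfox2 itself had 4.97, 0.213 and 4.53 CPM (a gene's counts scaled to a library total of 1000000) in controls 1 to 3 and 0.0852, 2.44 and 0.300 CPM in Rbfox2-deleted 1 to 3, so control 2 and Rbfox2-deleted 2 go against their labels, and each direction given here rests on "the libraries labelled Rbfox2-deleted". All 8 positive genes listed for the stem cell gate, among them Kit, Ly6a, Slamf1 and Procr, had counts in every library, and Cd48 had 0 counts in 5 libraries and 3 counts in Rbfox2-deleted 3. Fgd5 of that list had only 16 and 6 counts in Rbfox2-deleted 1 and 3. Ly6a, which encodes Sca-1, had 632, 815 and 665 CPM in controls and 330, 336 and 423 CPM in Rbfox2-deleted 1 to 3 (edgeR adjusted p = 0.387). Groups did not overlap for 0 higher and 1 lower of the 8, against 15.8% and 15.4% of all genes.

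Class I molecules pair a heavy chain with beta-2-microglobulin and show peptides cut in the cytosol. TAP1 and TAP2 pump those peptides into the endoplasmic reticulum, where tapasin (Tapbp) holds the empty molecule next to the pump. Class II molecules pair an alpha and a beta chain, which the invariant chain CD74 guards until an endosome supplies peptides. Nearly all nucleated cells carry class I, while class II is best known from B cells, dendritic cells and macrophages and is also found on blood stem cells. Class II genes share X and Y boxes before their start sites, which the transactivator CIITA needs, and class I genes carry related boxes read by NLRC5 and an interferon response element.

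The promoters of 5 members are shown because their genes take different courses in the data: B2m and H2-K1 for class I, Tap1 for peptide transport, and H2-Aa and H2-Eb1 for class II. Each is 250 bases before to 50 after the RefSeq start site (GRCm38.p6, the same assembly as mm10), 5′ to 3′ on the gene's own strand, and capitals mark the motif matches listed after them.
B2m: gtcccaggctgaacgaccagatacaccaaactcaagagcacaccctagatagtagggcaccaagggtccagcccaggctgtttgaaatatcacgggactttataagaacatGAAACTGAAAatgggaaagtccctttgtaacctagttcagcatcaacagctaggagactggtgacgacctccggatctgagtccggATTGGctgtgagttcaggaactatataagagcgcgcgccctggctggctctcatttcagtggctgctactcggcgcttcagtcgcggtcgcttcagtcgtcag
H2-K1: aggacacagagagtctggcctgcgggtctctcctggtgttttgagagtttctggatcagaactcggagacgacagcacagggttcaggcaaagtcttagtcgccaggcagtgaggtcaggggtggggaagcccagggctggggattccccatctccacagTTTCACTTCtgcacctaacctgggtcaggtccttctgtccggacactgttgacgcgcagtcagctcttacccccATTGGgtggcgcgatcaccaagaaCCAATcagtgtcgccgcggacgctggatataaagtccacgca
Tap1: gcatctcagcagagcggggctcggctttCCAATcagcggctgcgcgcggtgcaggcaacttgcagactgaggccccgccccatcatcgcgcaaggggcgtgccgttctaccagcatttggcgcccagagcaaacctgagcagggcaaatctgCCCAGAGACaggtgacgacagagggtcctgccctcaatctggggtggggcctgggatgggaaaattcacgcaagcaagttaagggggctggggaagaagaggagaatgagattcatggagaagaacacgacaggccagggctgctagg
H2-Aa: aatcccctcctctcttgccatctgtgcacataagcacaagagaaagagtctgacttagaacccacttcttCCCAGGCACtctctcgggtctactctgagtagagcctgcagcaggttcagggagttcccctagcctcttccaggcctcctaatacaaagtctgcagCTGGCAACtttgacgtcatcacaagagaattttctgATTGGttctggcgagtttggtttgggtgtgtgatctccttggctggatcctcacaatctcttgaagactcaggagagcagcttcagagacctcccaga
H2-Eb1: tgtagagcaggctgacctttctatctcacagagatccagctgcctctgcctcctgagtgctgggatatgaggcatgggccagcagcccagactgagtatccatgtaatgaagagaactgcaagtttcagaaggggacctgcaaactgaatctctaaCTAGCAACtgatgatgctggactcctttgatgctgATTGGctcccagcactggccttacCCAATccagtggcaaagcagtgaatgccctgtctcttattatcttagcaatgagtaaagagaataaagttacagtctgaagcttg
They lie at chr2:122147437-122147736 (plus strand), chr17:34000298-34000597 (minus), chr17:34187306-34187605 (plus), chr17:34287774-34288073 (minus) and chr17:34305617-34305916 (plus), in that order. The RefSeq promoter table used here matched 8 of the 10 named genes.

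Motifs were searched on both strands. The Y box letters ATTGG, or CCAAT on the other strand, were in all 5 promoters and in 37.4% of 32851 promoters of the same length. In H2-Aa and H2-Eb1 a match began 48 and 59 bases before the start site. The X box form CCNAGNNAC (17.3% of all promoters) matched in H2-Aa and Tap1. A second form, CTNGCAAC (3.42% of all promoters), was written after the sequences were seen and matched in H2-Aa and H2-Eb1, 84 and 94 bases before the start. The interferon response element, TTTC and TTTC with any 2 bases between them (3.44% of all promoters), matched on the minus strand of B2m, 139 bases before the start. Its shorter form TTTCNNTTC, also written after the sequences were seen (7.52% of all promoters; neither form contains the other), matched in H2-K1, 90 bases before the start. These matches describe letters in a window and are not measured binding sites.

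The class I genes B2m and H2-K1 were among the most abundant messages of these cells. Per kilobase of exons, B2m ranked 3 of 20506 protein-coding genes in each control and 3, 4 and 2 in Rbfox2-deleted 1, 2 and 3. Its share of all counts was 1.11%, 1.19% and 1.15% in controls 1 to 3, and 0.836%, 0.693% and 0.767% in Rbfox2-deleted 1 to 3. H2-K1 ranked between 21 and 30 in the 6 libraries. The class I gene H2-T23 stood further down, between 204 and 373. Class II and loading genes ranked from 42 (Cd74 in control 2) to 9794 (H2-Eb1 in Rbfox2-deleted 1). Cd74 ranked above H2-T23 in every library except control 3.

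B2m (ENSMUSG00000060802, chr2:122147686-122153083, plus strand; all positions are mm10), the light chain of class I molecules, had a lower level in each of the 3 libraries labelled Rbfox2-deleted. It stood at 11052, 11868 and 11488 CPM in controls 1, 2 and 3 and 8356, 6925 and 7669 CPM in Rbfox2-deleted 1, 2 and 3. The groups did not overlap, and the deleted mean was 0.661 times the control mean (11577 ± 412 CPM, SD, n = 2, against 7650.2 ± 716 CPM, SD, n = 3). The log2 fold change, scaled by edgeR's TMM factors, was -0.65 (SE 0.279, adjusted p = 0.528), which did not pass the test.

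H2-K1 (ENSMUSG00000061232, chr17:33996017-34000347, minus strand), a classical class I heavy chain, had 6296, 4738 and 6226 CPM in the controls and 4029, 4238 and 5043 CPM in Rbfox2-deleted 1 to 3. Control 2 lay below Rbfox2-deleted 3, so the groups overlapped on this scale, although they did not once TMM factors were applied. On the log2 scale the difference was -0.38 with SE 0.227, and edgeR's adjusted p was 0.698. H2-T23 (ENSMUSG00000067212, chr17:36029773-36032855, minus strand), which encodes the nonclassical molecule Qa-1, read by natural killer receptors, had 1059, 868 and 1057 CPM in the controls and 933, 597 and 635 CPM in Rbfox2-deleted 1 to 3. Here Rbfox2-deleted 1 lay above control 2 and the other two lay below all controls. The log2 difference was -0.43 with SE 0.370 and an edgeR adjusted p of 0.848.

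The class I sum of H2-K1 and B2m was 17348, 16606 and 17714 CPM in controls and 12385, 11163 and 12712 CPM in Rbfox2-deleted libraries, 0.708 times control, and the groups did not overlap. In bulk RNA, fewer cells with a message and less of it per cell cannot be told apart. H2-K1 and H2-T23 have close relatives: 9.63% and 14.5% of their 50-base transcript stretches also occur in transcripts of other genes (4.08% and 3.34% in H2-D1), so their counts depend on how shared reads were assigned. B2m shares none.

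Tap1 (ENSMUSG00000037321, chr17:34187553-34197225, plus strand), which encodes one chain of the peptide pump, was the only member higher in every library labelled Rbfox2-deleted, opposite to the heavy and light chains it serves. It had 36.5, 46.7 and 34.8 CPM in controls 1 to 3 and 86.3, 76.6 and 82.7 CPM in Rbfox2-deleted 1 to 3. The groups were well apart (41.1 ± 7.89 CPM, SD, n = 2, against 81.8 ± 4.90 CPM, SD, n = 3), a fold of 1.99. The log2 difference, 0.93 with SE 0.467, did not pass (edgeR adjusted p = 0.608). Tap2, the other chain of the pump, had 50.3, 35.3 and 50.9 CPM in controls and 63.2, 119 and 147 CPM in Rbfox2-deleted 1 to 3, also without overlap (log2 1.24, SE 0.442, edgeR adjusted p = 0.454). The 2 pump chains kept no fixed ratio: Tap1 per kilobase was 0.472 to 0.915 of Tap2 in controls and 0.389 to 0.943 in Rbfox2-deleted libraries, which overlapped.

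Tapbp (ENSMUSG00000024308, chr17:33915899-33929292, plus strand), the tapasin gene, had 286, 350.1 and 293 CPM in the controls and 273, 384 and 394 CPM in Rbfox2-deleted 1 to 3. The groups overlapped, with Rbfox2-deleted 1 lowest of all. Its log2 fold change of 0.03 (SE 0.246, edgeR adjusted p = 0.990) turned to -0.30 with upper quartile scaling, and 23.2% of its 50-base stretches occur in other genes, 20.3% in the predicted gene Gm19412. Per kilobase of exons, Tap1 stood at 0.0843, 0.0884 and 0.0787 of the Tapbp level in controls and at 0.210, 0.132 and 0.139 in Rbfox2-deleted libraries. This ratio, chosen after values were seen, did not overlap between groups. With Tapbp near level, it mainly repeats the difference in Tap1.

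Tap1 and Psmb9, an immunoproteasome subunit, start head to head on chromosome 17. Psmb9 was picked out after its values were seen. The gene models overlap at their starts, reads there cannot be assigned by strand, and 2.88% of Tap1's 50-base stretches occur in Psmb9. Psmb9 had 620.3, 683 and 606 CPM in controls and 429.8, 361 and 421 CPM in Rbfox2-deleted 1 to 3 (log2 -0.74, SE 0.277, edgeR adjusted p = 0.467). These neighbours thus lay in opposite directions in all 3 Rbfox2-deleted libraries, neither past the test.

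**Figure D1:**
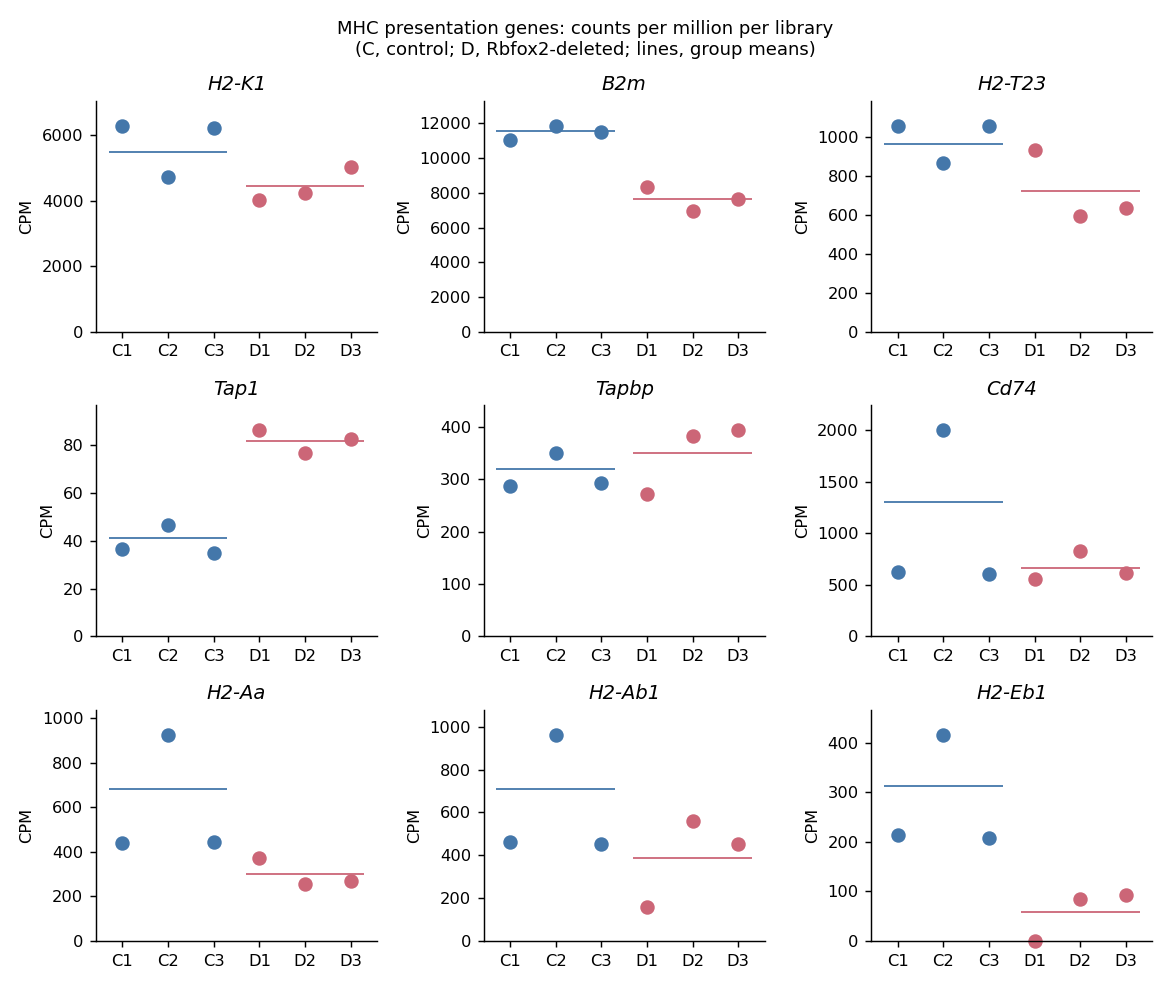
CPM (y axis, from 0) of the 9 measured members in control libraries C1 to C3 and Rbfox2-deleted libraries D1 to D3 (x axis); lines are group means, with controls 1 and 3 pooled. B2m lies at 11052 to 11868 CPM in controls and 6925 to 8356 CPM in Rbfox2-deleted libraries, Tap1 is higher in all 3 Rbfox2-deleted libraries, and control 2 is the highest point for each class II gene.

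Class II messages were present in all 6 libraries and lower on average in those labelled Rbfox2-deleted, but control 2 carried much of that difference. H2-Aa (ENSMUSG00000036594, chr17:34282744-34287823, minus strand), the alpha chain of the I-A molecule, had 439.7, 927 and 445 CPM in controls 1 to 3 and 374, 257 and 271 CPM in Rbfox2-deleted 1 to 3. The groups did not overlap in CPM, though the TMM-scaled value of Rbfox2-deleted 1 (443 CPM) came just above that of pooled controls 1 and 3 (439 CPM). The log2 difference was -1.23 with SE 0.455 (edgeR unadjusted p = 0.0330, adjusted p = 0.465), and -0.52 without control 2.

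H2-Ab1 (ENSMUSG00000073421, chr17:34257689-34269419, plus strand), the beta chain of I-A, had 462, 964 and 455 CPM in controls and 156, 558 and 453 CPM in Rbfox2-deleted 1 to 3. Rbfox2-deleted 2 lay above controls 1 and 3, so the groups overlapped. The log2 difference of -1.03 had SE 0.516 and an edgeR adjusted p of 0.605, and was -0.31 without control 2. The levels of these 2 chains, whose proteins pair, did not follow each other: per kilobase of exons H2-Aa stood at 0.644, 0.651 and 0.662 of H2-Ab1 in controls 1 to 3, but at 1.62, 0.312 and 0.404 in Rbfox2-deleted 1 to 3. The control ratio rests on 2 samples, 0.653 in pooled controls 1 and 3 and 0.651 in control 2, which had the highest level of both chains. In each Rbfox2-deleted library the ratio lay outside the control values, on both sides of them.

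H2-Eb1 (ENSMUSG00000060586, chr17:34305867-34316674, plus strand), the beta chain of the I-E molecule, was the most uneven member. C57BL/6 mice lack a working I-E alpha chain, so they make the H2-Eb1 message but no surface I-E. It had 213, 416 and 208 CPM in controls and 0.0426, 85.5 and 92.2 CPM in Rbfox2-deleted 1 to 3, the groups not overlapping. The value of Rbfox2-deleted 1 is a single count (95% Poisson interval 0.00108 to 0.237 CPM, which covers counting error only), beside 8779 counts of H2-Aa and 3669 of H2-Ab1 in the same library. The log2 difference was -2.63 with SE 1.72 and an edgeR adjusted p of 0.740, and was -2.07 without Rbfox2-deleted 1. By limma-voom it was -4.06.

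H2-Eb1 stood at 0.610, 0.571 and 0.603 of the H2-Ab1 level per kilobase in controls, and at 0.000360, 0.203 and 0.268 in Rbfox2-deleted libraries. None of its 50-base stretches occur in another gene. A near-empty value for an abundant gene was rare: of 992 genes with at least 200 CPM in all 3 controls, 7 had under 1 CPM in Rbfox2-deleted 1, among them H2-Eb1, and 0 in Rbfox2-deleted 2 or 3. In the other direction, 0 of 793 genes with at least 200 CPM in all Rbfox2-deleted libraries had under 1 CPM in any control. Rbfox2-deleted 1 had counts for 14154 genes, against 15950 to 17087 in the other libraries. It also had near-empty values for less abundant genes. Cd1d1 and Rfxank had 1 count each there, and 38.8 to 159 and 46.3 to 70.1 CPM in the other libraries.

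Cd74 (ENSMUSG00000024610, chr18:60803848-60812652, plus strand), the invariant chain, had 623, 2002.5 and 606 CPM in controls and 555, 826 and 614 CPM in Rbfox2-deleted 1 to 3. Control 2 stood far above all others, and the remaining 5 libraries were intermixed. Its log2 difference of -1.09 (SE 0.508, edgeR adjusted p = 0.572) turned to 0.10 without control 2. Relative to H2-Ab1 per kilobase, Cd74 stood at 2.06, 3.18 and 2.04 in controls and 5.44, 2.27 and 2.07 in Rbfox2-deleted libraries. The class II sum with Cd74 was 1738, 4309.6 and 1713 CPM in controls and 1086, 1727 and 1430.1 CPM in Rbfox2-deleted libraries, 0.469 times control as means, with Rbfox2-deleted 2 level with controls 1 and 3.

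**Figure D2:**
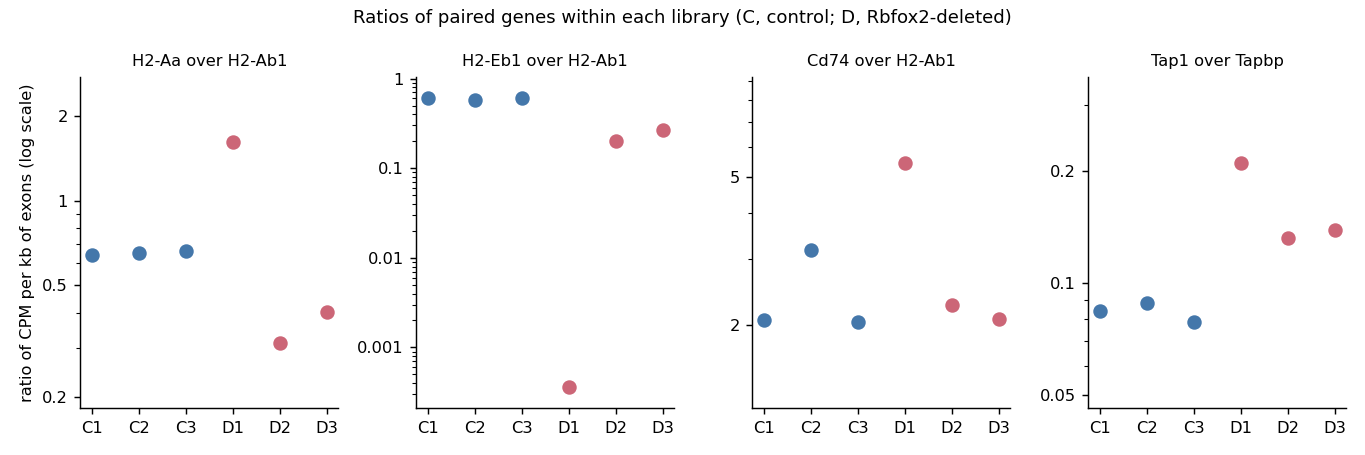
Ratio of CPM per kilobase of exons (y axis, log scale, a separate range in each panel) for 4 pairs of members in each library (x axis; C, control; D, Rbfox2-deleted). H2-Aa over H2-Ab1 is 0.644 to 0.662 in controls and 1.62, 0.312 and 0.404 in Rbfox2-deleted libraries, and Tap1 over Tapbp is higher in all 3 of them.

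Marker sums of other class II positive cells, each made up mostly of 1 gene, were not raised in control 2. Summed CPM of 10 B cell genes was 214 to 331 in controls and 139.6 to 200.2 in Rbfox2-deleted libraries, of 12 dendritic cell genes 1080 to 1168 and 994 to 1398, and of 12 monocyte and macrophage genes 1524 to 2161 and 1249 to 1572. Control 2, the highest in class II, was the lowest control in each of these 3 sums. The B cell sum was lower in every Rbfox2-deleted library than in every control, as B2m was, and its part in the class I and II values was not tested. The highest gene of each sum was Cd79b, Cst3 and Lyz2, in that order, and 2 to 8 of the 10 B cell genes had no count in a library. In control 2 these 3 genes had 211, 735 and 1451 CPM of sums of 214, 1080 and 1524 CPM. The sums therefore mainly follow these genes and cannot show whether such cells were present. Of the B cell, dendritic cell and monocyte and macrophage genes measured, 7 of 10, 5 of 12 and 5 of 12 had at most 20 counts in every library, with at most 1 count of Pax5, 3 of Ms4a1 or Itgax, 2 of Xcr1, Siglech or Adgre1 and 14 of Csf1r in any library. The others had more, several of them unevenly. The macrophage receptor Fcgr1 had 381 counts in control 2 and at most 3 elsewhere. The complement gene C1qa had 520, 204 and 601 counts in controls and 51, 66 and 0 in Rbfox2-deleted 1 to 3, and the macrophage gene Cd68 had 1888, 2241 and 2119 in controls and 0, 1745 and 344 in Rbfox2-deleted 1 to 3. C1qc of the same list had 854, 426 and 912 counts in controls and 1, 696 and 873 in Rbfox2-deleted 1 to 3. Cd14 had 79, 208 and 108 in controls and 1, 245 and 237 in Rbfox2-deleted 1 to 3. Of the 6 monocyte and macrophage genes tested, 2 lay above control and 4 below. Of the 5 dendritic cell genes tested, 3 lay above control and 2 below. Tcf4 had 94.8 to 104 CPM in controls and 190.01 to 367 CPM in Rbfox2-deleted libraries, without overlap. Its log2 difference was 1.46 with SE 0.468 (edgeR unadjusted p = 0.0192, adjusted p = 0.412). Flt3 reached 794 counts in Rbfox2-deleted 3, and its groups overlapped. Of other dendritic cell genes, Clec9a reached 75 counts in control 3, Batf3 151 in Rbfox2-deleted 2 and Zbtb46 103 in Rbfox2-deleted 3. Of B cell genes, Fcrla reached 161 counts in Rbfox2-deleted 3 and Vpreb1 312 in control 3. The part of these genes in the class II values was not tested. The highest genes of 3 further marker lists were Nkg7 (T and natural killer cells), Prtn3 (neutrophils) and Hbb-bs (erythroid cells), and T and natural killer, neutrophil and erythroid sums were 87.0 to 110, 518 to 837 and 101 to 149 CPM in controls and 113 to 168, 447 to 542 and 109 to 330 CPM in Rbfox2-deleted libraries.

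Against all genes, most members lay low, the class II members in part through control 2. Of the 9, 7 were below control and 2 above, while all 12350 genes tested had 5740 below and 6610 above. The median log2 fold change was -0.65 for the members, against 0.11 for all genes tested, a background that moved to -0.20 with upper quartile factors and 0.22 with library totals alone. Abundant genes as a whole lay below 0.11 in the TMM-scaled fit: in a comparison added after the values were seen, the median was -0.07 for the 2207 genes with a mean of at least 100 CPM, which hold 8 members, and -0.34 for the 103 genes of at least 1000 CPM. Of these genes, 53.6% and 65.0% lay below 0, in that order. The 103 most abundant genes hold H2-K1, at -0.38, and B2m, at -0.65. EdgeR's quasi-likelihood test called 0 members, and 0% of all genes. At an unadjusted p under 0.05 it had 1 member lower, H2-Aa, and 0 higher (4.56% and 5.33% of all genes); 53.9% of those genes were higher, but 23.8% with upper quartile scaling. DESeq2 called 0 members in either direction (1.71% of genes lower, 1.68% higher). In CPM the groups did not overlap for 3 members that were lower (B2m, H2-Aa and H2-Eb1) and 1 higher (Tap1), against 15.4% and 15.8% of all genes. With TMM-scaled CPM H2-K1 took the place of H2-Aa (17.2% of all genes lower, 14.9% higher), and 3 members, B2m, H2-Eb1 and Tap1, were apart on both scales.

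**Figure D3:**
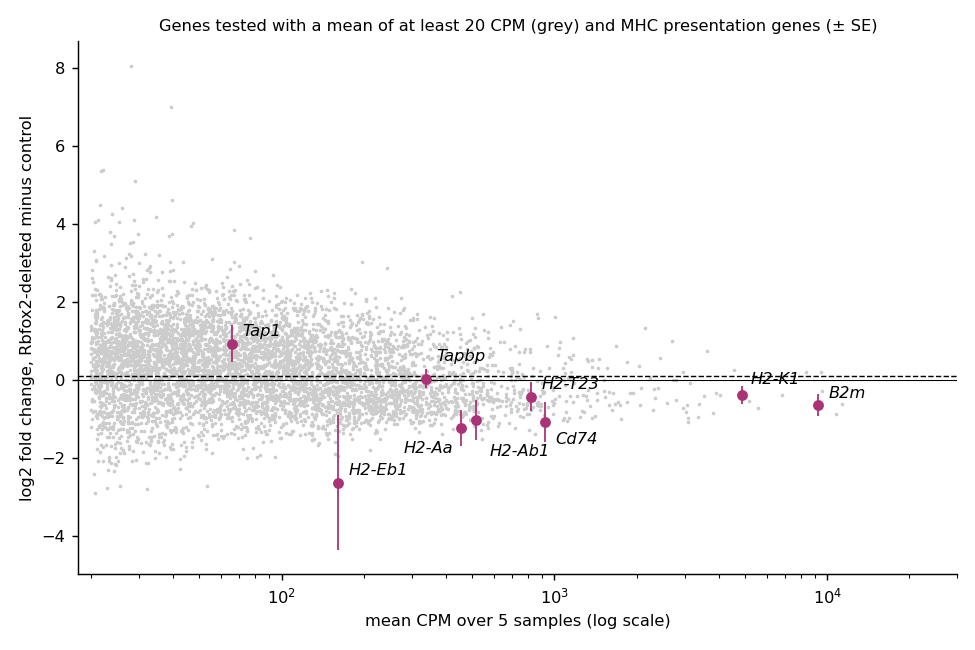
Log2 fold change, Rbfox2-deleted minus control (y axis, TMM-scaled, bars are SE), against mean CPM over 5 samples (x axis, log scale) for 5524 genes with at least 20 CPM (grey) and the 9 members (labelled); the dashed line is the median of all genes tested, 0.11. The members other than Tap1 and Tapbp lie below 0, and H2-Eb1 has the widest error.

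Other class I like genes went both ways. Of 17 tested, 10 lay above and 7 below control (median 0.10). An unadjusted p under 0.05 by edgeR was reached by 1 above (H2-T22) and 1 below (H2-Q7), against 5.33% and 4.56% of all genes. Groups did not overlap in CPM for 3 higher and 4 lower genes, against 15.8% and 15.4% of all genes. H2-Q7, a Qa-2 gene, had 889, 817 and 882 CPM in controls and 131, 374 and 495 CPM in Rbfox2-deleted 1 to 3 (log2 -1.51, SE 0.422, edgeR adjusted p = 0.387), and the groups did not overlap. Stretches that H2-Q7 shares with other genes were not counted. Its neighbour H2-Q6 had 158, 123 and 154 CPM in controls and 138, 163 and 193 CPM in Rbfox2-deleted 1 to 3, which overlapped. H2-T22, whose product is bound by some gamma-delta T cell receptors, had 167, 145 and 156 CPM in controls and 281, 274 and 290.1 CPM in Rbfox2-deleted libraries (log2 0.82, SE 0.280, edgeR adjusted p = 0.431). The iron regulator Hfe had at most 8.74 CPM in controls and 41.6, 27.7 and 15.7 CPM in Rbfox2-deleted libraries (log2 1.80, SE 0.935), and the neonatal Fc receptor Fcgrt had 185, 185 and 181 CPM in controls and 431, 284 and 243 CPM in Rbfox2-deleted libraries (log2 0.79, SE 0.434). Hfe and Fcgrt thus had all Rbfox2-deleted values above all controls, with edgeR adjusted p = 0.628 and 0.665.

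Of 23 genes of peptide supply and loading, 9 lay above and 14 below control (median -0.27). At an unadjusted p under 0.05 by edgeR, 2 were higher, Tap2 and Pdia3, and 3 lower, Psmb9, Psme1 and Sec61b (5.33% and 4.56% of all genes). Pdia3, the disulfide isomerase of the loading complex, had 379.6, 246 and 373 CPM in controls and 615, 965 and 981 CPM in Rbfox2-deleted 1 to 3 (log2 1.37, SE 0.268). Psme1, a proteasome activator subunit, had 1066, 1056 and 1054 CPM in controls and 641, 696 and 716 CPM in Rbfox2-deleted libraries (log2 -0.70, SE 0.220). Sec61b, a subunit of the channel into the endoplasmic reticulum, had 272, 302 and 264 CPM in controls and 109.8, 161 and 184 CPM in Rbfox2-deleted libraries (log2 -1.02, SE 0.267). EdgeR adjusted p values were 0.387, 0.402 and 0.387. Each of the 3, named for a small p, had groups that did not overlap. Over the whole list this held for 2 higher and 8 lower genes, against 15.8% and 15.4% of all genes.

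The class II loading and turnover list had 15 genes tested of 18 measured, 8 above and 7 below control (median 0.00359). Groups did not overlap in CPM for 1 higher and 2 lower genes, against 15.8% and 15.4% of all genes. H2-DMa, which helps to swap the invariant chain fragment for a peptide, had 664, 663 and 646 CPM in controls and 233, 519 and 478 CPM in Rbfox2-deleted 1 to 3 (log2 -0.81, SE 0.294, edgeR adjusted p = 0.461). H2-Oa, part of the inhibitor of that step, had 83.9, 78.9 and 78.7 CPM in controls and 50.4, 27.3 and 22.6 CPM in Rbfox2-deleted libraries (log2 -1.25, SE 0.625, edgeR adjusted p = 0.607). Both had nearly equal values in the 2 control samples, unlike the I-A and I-E chains, which were highest in control 2. Pooled controls 1 and 3 and control 2 had 654 and 663 CPM of H2-DMa and 81.1 and 78.9 CPM of H2-Oa. The groups did not overlap for either. The lysosomal proteases Ctsb and Ctsd lay the other way. Ctsb had 147, 121 and 151 CPM in controls and 302, 487 and 452 CPM in Rbfox2-deleted libraries, without overlap (log2 1.52, SE 0.264, edgeR adjusted p = 0.387; DESeq2 adjusted p = 0.00837). Ctsd had 229.9, 165 and 231 CPM in controls and 218, 524 and 484 CPM in Rbfox2-deleted libraries, with Rbfox2-deleted 1 among the controls (log2 0.93, SE 0.350, edgeR adjusted p = 0.468).

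Of 27 regulators of MHC genes, 14 lay above and 13 below control (median 0.37), and 4 above and 0 below had an unadjusted p under 0.05, against 5.33% and 4.56% of all genes. Ciita, the class II transactivator, had 3.38, 2.71 and 4.50 CPM in controls and 0.0426, 0.421 and 4.95 CPM in Rbfox2-deleted 1 to 3 (1, 15 and 165 counts; log2 -1.13, SE 1.92, edgeR adjusted p = 0.948). Rbfox2-deleted 1, with the lowest Ciita, also had the lowest H2-Ab1, H2-Eb1 and class II sum of all libraries in CPM. Its H2-Aa level, 374 CPM, was however the highest of the 3 Rbfox2-deleted libraries. With TMM factors its class II sum (1287 CPM) lay above that of Rbfox2-deleted 3 (1226 CPM). A link of Ciita to these levels was not tested. Rbfox2-deleted 3 had the highest Ciita; against Rbfox2-deleted 2 it was higher in H2-Aa and H2-Eb1 and lower in H2-Ab1 and Cd74. Nlrc5, the class I transactivator, had 24.2, 46.9 and 25.8 CPM in controls and 0.170, 25.7 and 45.8 CPM in Rbfox2-deleted libraries (log2 -0.83, SE 1.58, edgeR adjusted p = 0.957). Rbfox2-deleted 1, with 4 counts of Nlrc5, also had the lowest H2-K1 level of the 6 libraries, 4029 CPM, and the highest B2m level of the 3 Rbfox2-deleted libraries. With TMM factors its H2-K1 value (4778 CPM) was instead above those of Rbfox2-deleted 2 and 3 (3920 and 4323 CPM). This library also had the fewest genes with a count, 14154.

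The 4 regulators with the smallest p were higher in Rbfox2-deleted libraries. Irf9, the DNA-binding part of the complex that type I interferon sends to interferon response elements, had 32.4, 22.9 and 31.1 CPM in controls and 97.9, 113 and 85.7 CPM in Rbfox2-deleted 1 to 3 (log2 1.80, SE 0.468, edgeR adjusted p = 0.387; DESeq2 adjusted p = 0.0248). The interferon receptor chains Ifngr1 (log2 1.25, SE 0.462) and Ifnar1 (1.28, SE 0.505) and the deacetylase Hdac2 (1.32, SE 0.502) had edgeR adjusted p = 0.467, 0.487 and 0.470. In all 4, every Rbfox2-deleted library lay above every control. Over the whole list 6 genes had all Rbfox2-deleted libraries above all controls and 3 had them all below, against 15.8% and 15.4% of all genes.

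**Figure D4:**
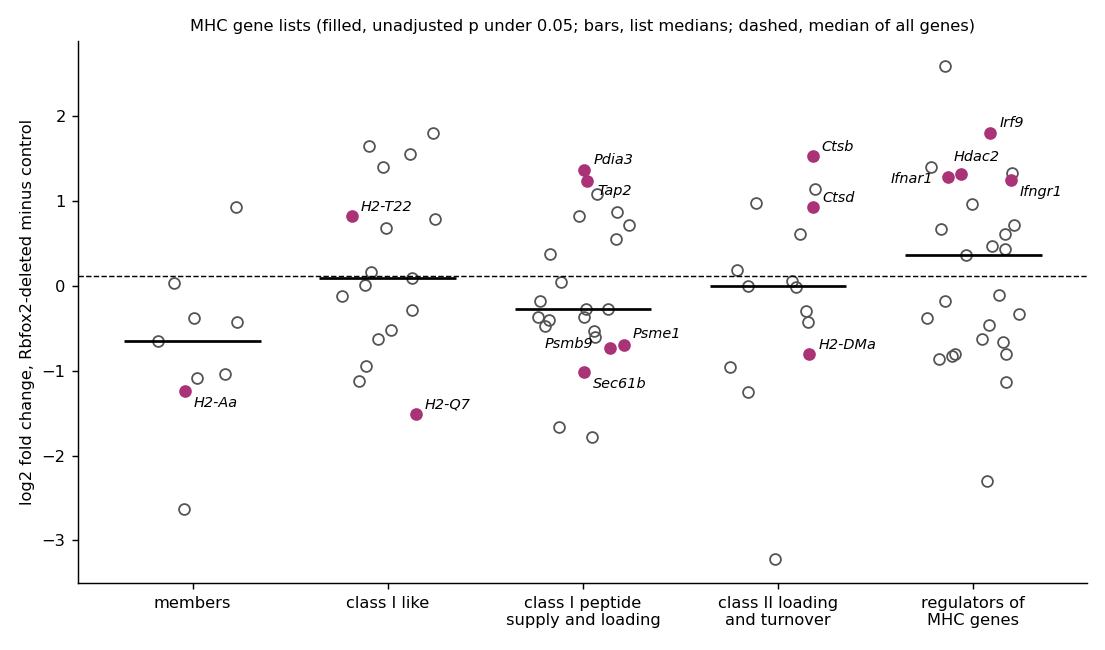
Log2 fold change, Rbfox2-deleted minus control (y axis), of each tested gene in the members and 4 other MHC lists (x axis, points spread sideways for legibility); filled and named points have an unadjusted p under 0.05, bars are list medians and the dashed line is the median of all genes. List medians are -0.65, 0.10, -0.27, 0.00359 and 0.37 from left to right.

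Genes whose level most resembled the class I and class II sums (without H2-D1) were sought among 8443 genes with a mean of at least 5 CPM, by Pearson correlation of log2(CPM + 1) over the 5 samples, as a description. Nearest to the class I sum (0.992 to 0.996) were Gpx1, Ddx46, Naa10, Atp6v1f and Tgs1. Gpx1, an antioxidant enzyme, had 3297, 3124 and 3210.0 CPM in controls and 2197, 2022 and 2369 CPM in Rbfox2-deleted libraries. Nearest to the class II sum (0.982 to 0.998) were Alad, Kmt5a, Mrpl2, Prr13 and Snw1, none of them a class II gene. Alad, an enzyme of heme synthesis, had 262, 471 and 255 CPM in controls and 183, 245 and 229 CPM in Rbfox2-deleted libraries, so it too was highest in control 2. The 5 samples share library depth and group with the sums, and no test was made.

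**Figure D5:**
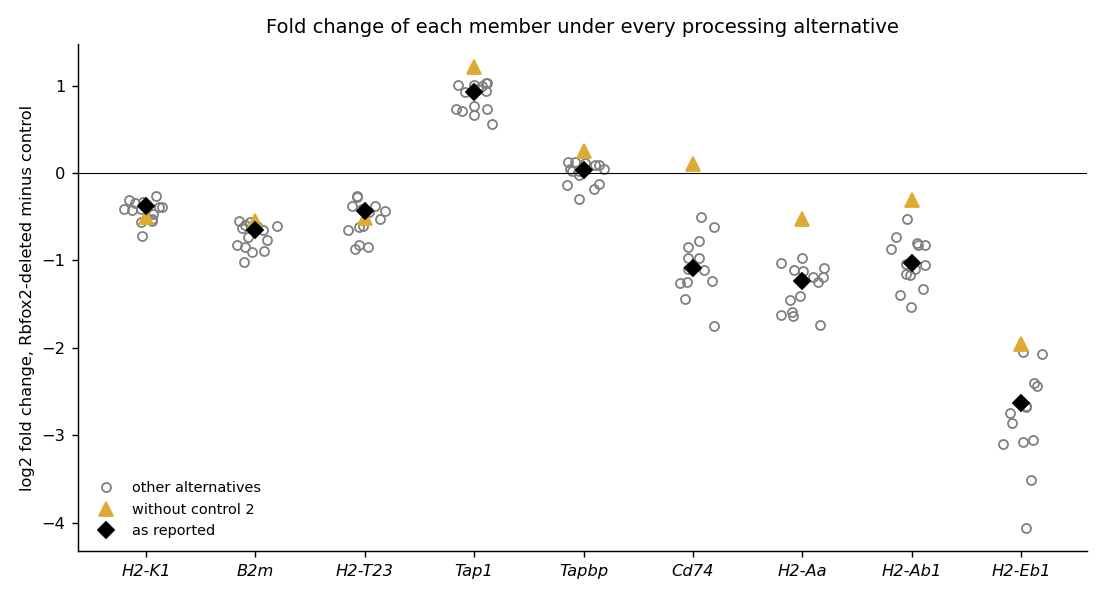
Log2 fold change, Rbfox2-deleted minus control (y axis), of each member (x axis) as reported (diamonds), without control 2 (triangles) and under the other processing alternatives (circles). Cd74 moves from -1.09 to 0.10 without control 2, the other class II members move toward 0, and Tap1 lies between 0.56 and 1.21.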

How the data were processed

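Stem cell RNA was sequenced in 6 Smart-seq2 libraries, which keep no strand and no molecular identifiers. The authors deposited unnormalized counts of reads per gene. Trimmomatic 0.39, featureCounts, DESeq2 1.36.0 and build mm10 are named per the submitters' processing notes. The aligner, the authors' annotation and how multi-mapping reads were counted: not given in the sources used here. Rows sharing an Ensembl identifier (134 rows, 60 identifiers) were summed, and symbols were found for 22831 of 22969 identifiers. Exon lengths came from GENCODE M21 on the same build.

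The test was the two-sided quasi-likelihood F test of edgeR 4.0.16 (R 4.3.3; glmQLFit, glmQLFTest) with group as its only term. filterByExpr kept genes with its defaults (min.count 10, min.total.count 15), TMM set the scaling, and p-values for the 12350 genes left were adjusted after Benjamini and Hochberg (threshold 0.05). SE is the fold change over the root of F. CPM use library totals. DESeq2 1.42.0 and limma 3.58.1 (voom) were alternatives. The script was tested on simulated data in which every gene had the same dispersion, unlike these data. That run checks the code and does not show which changes the test could find here. From each of 4 other MHC lists the 4 genes with the smallest p were named, plus Ciita, Nlrc5, the 5 genes most like each class sum and the highest gene of each marker list (for the stem cell gate, not reported here). Members and lists were chosen with earlier results of these data known, and the class I promoters, the ratios and the 2 extra motif forms after values or sequences were seen.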

Additional observations from a re-analysis of the deposited data

How the results depend on the processing

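The 9 members were refitted under 15 alternatives, and 128 of 134 values kept their direction, with 0 members called in any. EdgeR called 0 of 12350 genes and 0 under each of its alternatives and by limma-voom, while DESeq2 called 478. Tapbp turned to -0.30 with upper quartile scaling, -0.12 without a filter and -0.13 with at least 10 counts in every sample, a filter that drops H2-Eb1. With 1 sample left out, Tapbp lay between -0.18 and 0.25 (-0.024 without Rbfox2-deleted 2) and Cd74 between -1.75 and 0.10, the 0.10 being without control 2 (-1.24 without Rbfox2-deleted 2); the cause was not tested. A fit left with 1 control sample assumes that it varies like the others. Without control 2, H2-Aa, H2-Ab1 and H2-Eb1 were at -0.52, -0.31 and -1.96, and without Rbfox2-deleted 1 at -1.63, -0.74 and -2.07. Upper quartile scaling, which moved the median of all genes from 0.11 to -0.20, gave H2-K1 -0.72, B2m -1.02 and Tap1 0.56. The labels give no sex, and Xist counts differed between libraries. With sex, read from Xist and Eif2s3y counts, as a covariate, H2-Ab1 was at -0.53 and B2m at -0.90. H2-Eb1 was at -4.06 by limma-voom and -3.51 with the replicate block. The lowest adjusted p over all alternatives was 0.0638, for H2-Eb1. With the replicate block and 6 separate libraries, 0 genes were called; 685 above and 663 below control had an unadjusted p under 0.05, against 1283 and 862 with 6 libraries and no block. Deviations from the group mean correlated at -0.0462, 0.00241 and 0.0704 between libraries sharing a number. Controls 1 and 3, nearly the same library, correlated almost alike with Rbfox2-deleted 3 (0.0701 and 0.0704). Their pairings cannot be told apart, so these values do not settle whether the numbers pair the libraries. At 23474895 counts or more per library, counting error is small beside the spread between libraries except for genes near 0.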
